A study of Mus musculus with 8 samples.

Results

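The microRNA genes described here are Mir15a, Mir15b, Mir16-1, Mir16-2 and Mir322, the miR-15 and miR-16 family as far as it was chosen by name. All 5 were listed in each of the 5 deposited tables. They are 5 of the 420 microRNA genes, and of the 10822 distinct feature names, that these tables list. The study measured small RNA of 19 to 33 nt along the purification of the chromatoid body, a cytoplasmic RNA and protein granule of round spermatids, which are the haploid male germ cells that follow meiosis. The 8 samples form 7 groups, all from C57BL/6 mice at least 6 weeks old. The starting lysate came from cross-linked and sonicated cells of the seminiferous tubules. Centrifugation of this lysate gave the supernatant and the first pellet, and the second pellet was made from the first by another sonication and a filter step. Immunoprecipitation (IP) from the second pellet used antibodies against MVH, the mouse homologue of vasa and a chromatoid body RNA helicase, or against ACR, the acrosomal protease acrosin, as the control. Round spermatids were sorted from adult testes and carry the label hetMIWI, with no more said of their genotype. MVH IP has 2 libraries behind 1 column of values, 1 pellet column is tied to both pellet libraries, and each other group has 1 library. No difference below therefore has a replicate check, and no test of a condition was possible.

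MicroRNAs guide Argonaute proteins to messenger RNAs, mainly through pairing of the seed, bases 2 to 8 of the mature strand. The miR-15 and miR-16 family is known for lowering cyclins and other cell cycle genes and the survival factor Bcl2, and its members are made from several short clusters that were duplicated during vertebrate evolution. Mir15a and Mir16-1 lie together on chromosome 14, in a locus that the deposited mm9 tables give as chr14:62217063-62301210. Mir15b and Mir16-2 form the paired copy on chromosome 3, in the locus chr3:68808894-68838545. In the RefSeq annotation of GRCm38.p6, the gene Dleu2 spans the first pair and Smc4, a condensin subunit, spans the second. Mir322, the mouse counterpart of human miR-424, lies on the X chromosome at chrX:50407432-50407526 in mm9, with Mir503 beside it at chrX:50407161-50407231, and C430049B03Rik spans Mir322 in GRCm38.p6. Whether these positions are exonic or intronic was not analysed here.

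The mature strands are shown because they define the family: they share the seed and differ outside it, which decides whether a read can be told from that of a relative. Sequences are those of RefSeq for GRCm38.p6, 5′ to 3′, with the seed in capitals.
miR-15a-5p: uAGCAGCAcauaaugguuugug
miR-15b-5p: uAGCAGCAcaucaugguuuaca
miR-16-5p: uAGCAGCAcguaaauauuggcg
miR-322-5p: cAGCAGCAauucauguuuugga
miR-195a-5p: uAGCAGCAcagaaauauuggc
miR-497a-5p: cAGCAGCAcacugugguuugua
miR-503-5p: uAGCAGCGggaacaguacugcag
The first 4 are the strands of the 5 genes, and the last 3 come from relatives outside the 5. Of 1679 mature names in the RefSeq table, 10 carry the seed of miR-15a-5p. The seed of miR-503-5p differs from it in its last base. Counted from the 5′ end, miR-15b-5p differs from miR-15a-5p at 4 positions, A12C, G20A, U21C and G22A. miR-15a-5p and miR-16-5p differ at 6 positions and miR-15b-5p and miR-16-5p at 8.

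Mir16-1 and Mir16-2 give the same 5p strand, so a read of miR-16-5p fits both genes. Their other arms do differ, at 10 positions, and are shown because only these can separate the copies among mature strands.
miR-16-1-3p: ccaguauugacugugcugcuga
miR-16-2-3p: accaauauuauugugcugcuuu

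The tables give FPKM, fragment counts scaled to feature length and library size, and each was normalized on its own. What 1 read was worth could be read from the values, because the values of hairpins of one length were whole multiples of a single amount in the ACR IP table. In the lysate column of that table, 1 read was worth 343 FPKM at the 64 nt hairpin of Mir15b, 144 FPKM at the 84 nt hairpin of Mir15a, 104 FPKM at the 93 nt hairpin of Mir16-1 and 97.0 FPKM at the 95 nt hairpins of Mir16-2 and Mir322. FPKM therefore puts Mir15b above the longer hairpins for the same number of reads. Levels of different genes are given below both in FPKM and in read equivalents, which are the FPKM divided by the worth of 1 read. A comparison of one gene between columns does not depend on this.

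In the lysate, Mir16-1 was the most abundant of the 5 genes with 12974 read equivalents (exact Poisson 95% interval, counting error only, 12752 to 13199), and Mir16-2 had 12391. Mir15a followed with 5191, Mir15b with 3920 and Mir322 with 1943. The intervals of neighbours in this order did not overlap. Most of the reads at both Mir16 genes may be the same reads, so their intervals are not independent and do not measure their difference. In FPKM the order was different, with Mir16-1 at 647258, Mir15b at 646199, Mir16-2 at 576949, Mir15a at 359632 and Mir322 at 90493.5. By FPKM, Mir16-1, Mir15b, Mir16-2 and Mir15a held ranks 3, 4, 6 and 12 among the 386 microRNA genes of the supernatant table, and Mir322 rank 52.

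**Figure D1:**
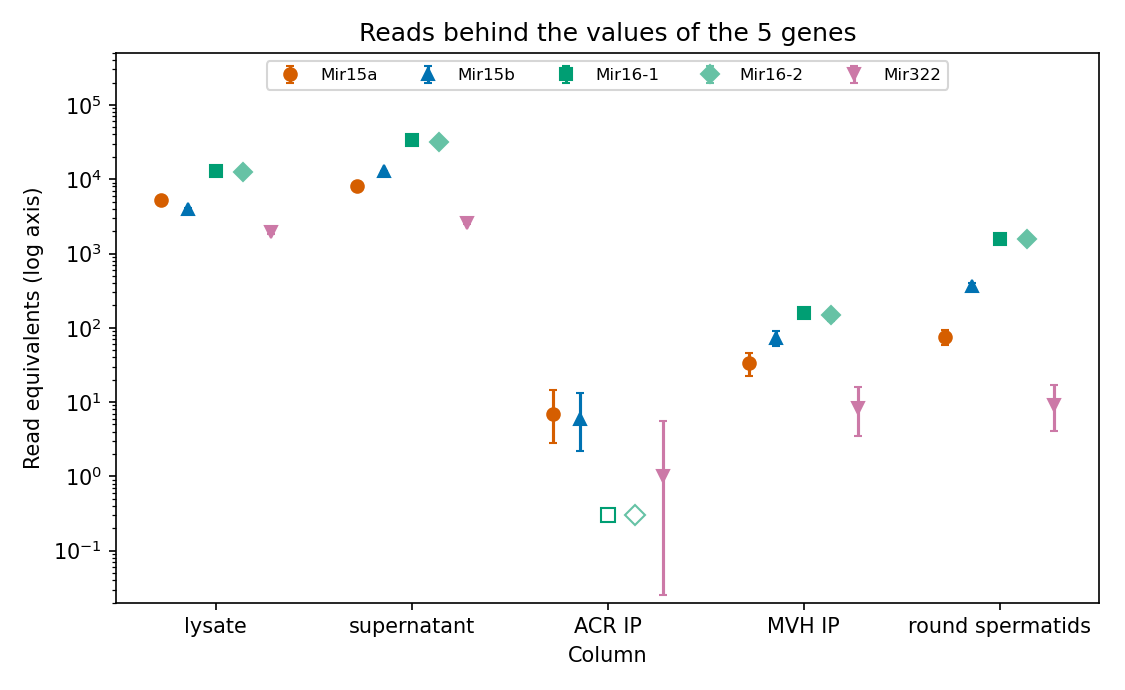
Read equivalents (log axis) of the 5 genes in 5 columns, with exact Poisson 95% intervals for counting error; open symbols, drawn at an arbitrary height, mark Mir16-1 and Mir16-2, listed at 0 in the ACR IP. The lysate holds 1943 to 12974 reads per gene, while the ACR IP holds at most 7 and Mir322 only about 8 to 9 in the MVH IP and round spermatids.

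The reads behind the later columns set how firmly each can be read. In the supernatant, the 5 genes had 2571 (Mir322) to 33696 (Mir16-1) read equivalents. In round spermatids Mir16-1 had about 1584, Mir16-2 about 1555, Mir15b about 361 and Mir15a about 74.7, but Mir322 about 9.21 (4.12 to 17.1). The MVH IP was shallower still for the abundant genes, with about 159 for Mir16-1, 147 for Mir16-2, 72.2 for Mir15b, 33.2 for Mir15a and 8.27 for Mir322 (3.45 to 15.8). For these last 2 columns the worth of 1 read is less certain, and the true numbers could be about double, which would narrow the intervals.

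Both Mir16 genes were nearly missing from the lysate column of the ACR IP table. The lysate columns of the supernatant and pellet tables were the same values in a fixed ratio of 2.39, and each of the 5 genes kept its full scaled value. In the ACR IP table the fixed ratio was 2.08, and there Mir15a kept 99.8% of its scaled lysate value, Mir15b 98.6% and Mir322 99.9%. Mir16-1 kept 6.83% and Mir16-2 2.09%. Thus 12088 lysate reads of Mir16-1 and 12132 of Mir16-2 in the supernatant table had no counterpart in the ACR IP table, 2 nearly equal numbers, and 886 and 259 were left. Of 291 microRNA genes with a lysate value in both tables, 42 kept under 50% and 226 more than 95%. The sources used here do not say how reads with several matches were treated in each table. Sums over Mir16-1 and Mir16-2 may count the same reads at both genes, so each copy is given by itself below and stands for the pair.

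**Figure D2:**
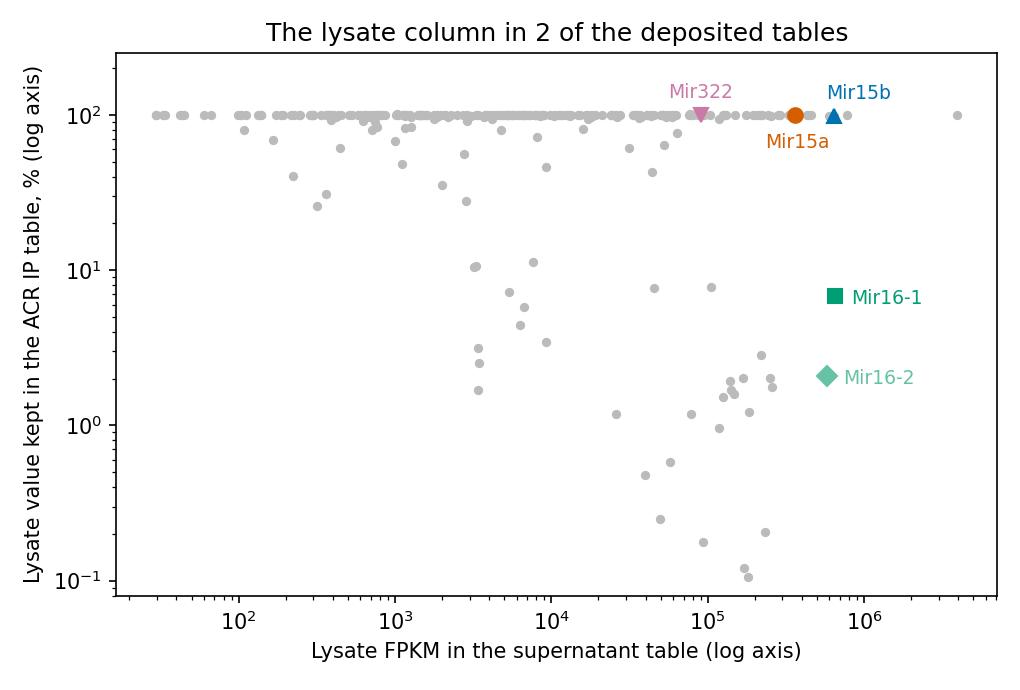
Each of 290 microRNA genes by its lysate FPKM in the supernatant table (log x axis) and by the percent of that value kept in the ACR IP table after scaling (log y axis); 1 gene at 0 is not drawn. Mir15a, Mir15b and Mir322 sit at 98.6% or more, Mir16-1 at 6.83% and Mir16-2 at 2.09%.

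The supernatant holds what stays in solution when the sonicated lysate is spun. Here Mir15b and both Mir16 genes were higher than in the lysate, and Mir15a and Mir322 were close to it. Mir15b was at 1401270 FPKM in the supernatant against 646199 in the lysate, 2.17-fold higher (log2 ratio 1.12, SE 0.025). Mir16-1 was at 1121440 against 647258 FPKM (log2 ratio 0.79, SE 0.014), and Mir16-2 was at 995260 against 576949 FPKM (0.79, SE 0.015). Mir15a was at 377609 against 359632 FPKM (log2 ratio 0.07, SE 0.025), and Mir322 at 79853.4 against 90493.5 FPKM (-0.18, SE 0.043). These log2 ratios are of FPKM plus 1, and each SE is the one implied by the statistic in the authors' deposited table. It measures counting error: Poisson errors from the read equivalents came to nearly the same, 0.0434 against 0.0432 for Mir322. Only Mir15b was at least 2-fold higher, and none of the 5 was at least 2-fold lower. Among all features, 7.16% reached 2-fold in the upward and 5.42% in the downward direction, and among microRNA genes 15.5% and 12.7%. The median log2 ratio of the 5 was 0.79, beside 0.21 for microRNA genes and 0.02 for all features. With Mir16-1 and Mir16-2 summed, as their reads may be the same, it was 0.43. The authors' deposited table calls Mir15b, Mir16-1 and Mir16-2 higher, as it does 0.942% of all features and 10.9% of microRNA genes. It makes no call for Mir15a (q-value 0.0587) or Mir322 (q-value 0.000571), though the latter's q-value is low. Both genes of the chromosome 3 cluster were thus called higher, and of the chromosome 14 cluster only Mir16-1, which shares its 5p strand with Mir16-2.

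The pellet holds the dense material from which the chromatoid body is taken. All 5 genes were lower there than in the lysate of the same table, as most features were. Mir15b was at 143444 FPKM in the pellet against 1544630 in the lysate, 10.8-fold lower (log2 ratio -3.43, SE 0.081). Mir16-1 was at 90479.8 against 1547160 FPKM, 17.1-fold lower, and Mir16-2 at 81122.3 against 1379100 FPKM, 17.0-fold lower. Mir15a was at 34092 against 859639 FPKM, 25.2-fold lower (log2 ratio -4.66, SE 0.10). Mir322 was the lowest of the 5, at 2764.03 against 216309 FPKM, 78.3-fold lower (log2 ratio -6.29, SE 0.29). At least 2-fold lower values were found for 5 of 5 genes, for 86.5% of all features and for 93.4% of microRNA genes, so this count says nothing particular about the family. The median log2 ratio was -4.10 for the 5 genes (-4.37 with Mir16-1 and Mir16-2 summed), -4.65 for microRNA genes and -2.20 for all features. Set against the median microRNA gene, Mir15b was thus less low by 1.23 on the log2 scale, Mir16-1 by 0.56 and Mir16-2 by 0.57, while Mir15a was at -0.0018 and Mir322 at -1.64. The authors' deposited table calls all 5 lower, as it does 18.7% of all features and 34.7% of microRNA genes.

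**Figure D3:**
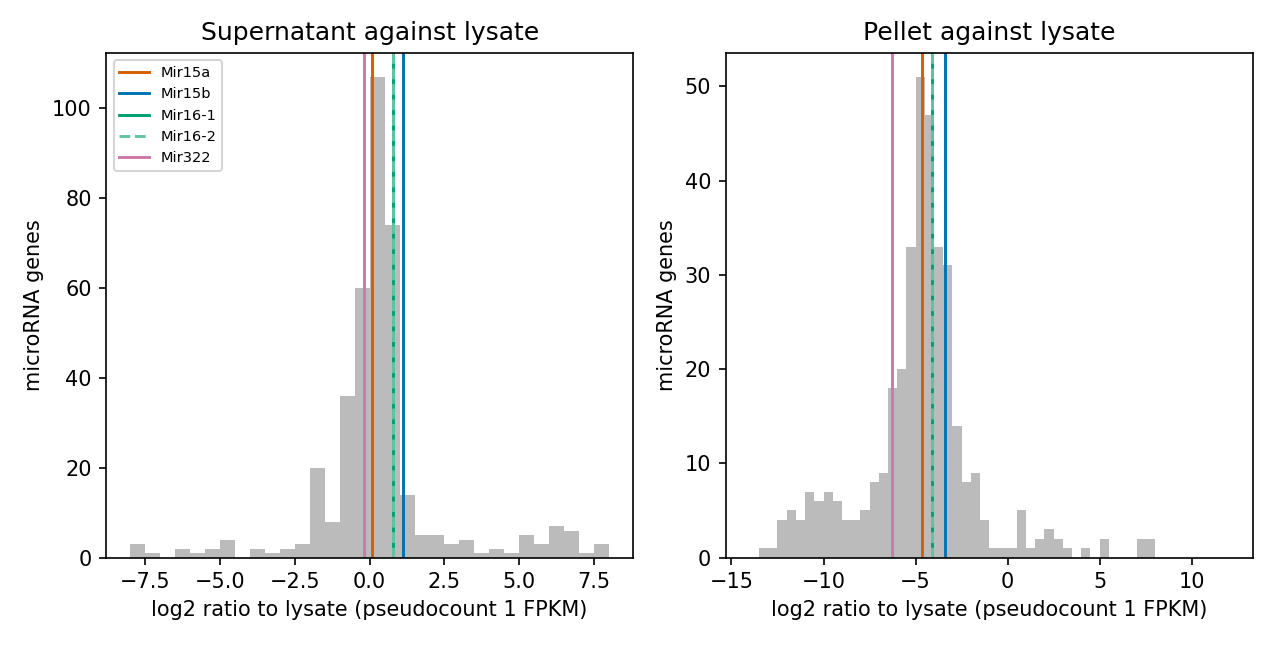
Histograms of log2 ratios to lysate (x axis) over 386 microRNA genes in the supernatant and 363 in the pellet (y axis, number of genes), with the 5 genes as vertical lines; 6 supernatant ratios beyond the axis are counted in its end bars. In both panels Mir15b lies highest of the 5 and Mir322 lowest.

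The control precipitate with the ACR antibody held almost no reads of the family. Mir15a was at 10097.2 FPKM, which is 7 reads, against 5180 in the lysate column, 74.0-fold lower (95% interval from the counts of the precipitate 35.9 to 184). Mir15b was at 20594.8 FPKM, or 6 reads, against 3864, 64.4-fold lower (29.6 to 175). Mir322 was at 969.552 FPKM, a single read, against 1942, 194-fold lower with an interval of 34.9 to 7670. These intervals overlap, so no difference between the 3 genes was detectable at this depth. Mir16-1 and Mir16-2 were listed at 0, which against a floor of 3 reads in that library is at least 29.5-fold and at least 8.63-fold lower than the few lysate reads the table keeps for them. Values at least 2-fold lower than the lysate were found for 97.6% of microRNA genes and 59.0% of all features, beside 5 of 5 here, and 220 of the 292 microRNA genes compared were listed at 0 in the precipitate.

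The precipitate with the MVH antibody is the last step toward the chromatoid body. By FPKM, in which a read at its short hairpin counts for more, Mir15b led the family there with 281351, rank 6 of 214 microRNA genes. It was followed by Mir16-1 with 187010 (rank 11), Mir16-2 with 162127 (rank 12), Mir15a with 54273.2 (rank 32) and Mir322 with 9095.25 (rank 120). By read equivalents Mir16-1 (about 159) and Mir16-2 (147) led in the MVH IP, ahead of Mir15b (72.2), as they did in round spermatids. In round spermatids the Mir16 genes led, with Mir16-1 at 236154 FPKM (rank 4 of 259), Mir16-2 at 216277 (rank 5) and Mir15b at 177793 (rank 6). Mir15a was at 15453.7 FPKM there (rank 47) and Mir322 at 1281.4 (rank 130). In the supernatant the ranks of Mir15a, Mir15b, Mir16-1, Mir16-2 and Mir322 were 15, 2, 3, 5 and 66 of 386, and in the pellet 13, 2, 5, 6 and 107 of 363. Mir15b and both Mir16 genes were therefore among the 12 highest microRNA genes in each of these columns and the lysate, while Mir15a and Mir322 held much lower ranks in the MVH IP and in round spermatids than in the lysate.

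To set these columns beside the lysate, each gene's share of the FPKM sum was taken over the 170 microRNA genes listed in the supernatant, pellet, MVH IP and round spermatid tables. With the Mir16 pair counted once (Mir16-2 left out of the sum and of the total), the family held 9.13% in the lysate, 11.5% in the supernatant, 10.5% in the pellet, 6.21% in the MVH IP and 10.5% in round spermatids. With both copies, whose reads may be the same, the sums were 11.8%, 14.8%, 13.3%, 7.95% and 15.0%. Mir16-1 held 3.29% in the lysate, 4.18% in the supernatant, 3.41% in the pellet, 2.14% in the MVH IP and 5.46% in round spermatids. Mir16-2 ran beside it at 2.93%, 3.71%, 3.06%, 1.86% and 5.00%. Mir15b kept a high share in all 5 columns, with 3.28% in the lysate, 5.22% in the supernatant, 5.40% in the pellet, 3.22% in the MVH IP and 4.11% in round spermatids. Mir15a had a lower share in each next column, with 1.83%, 1.41%, 1.28%, 0.622% and 0.358%. Mir322 was at 0.460%, 0.297%, 0.104%, 0.104% and 0.0296%. A share depends on every other microRNA in the column, and in whole tissue, fewer cells of a type and less RNA per cell cannot be told apart.

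**Figure D4:**
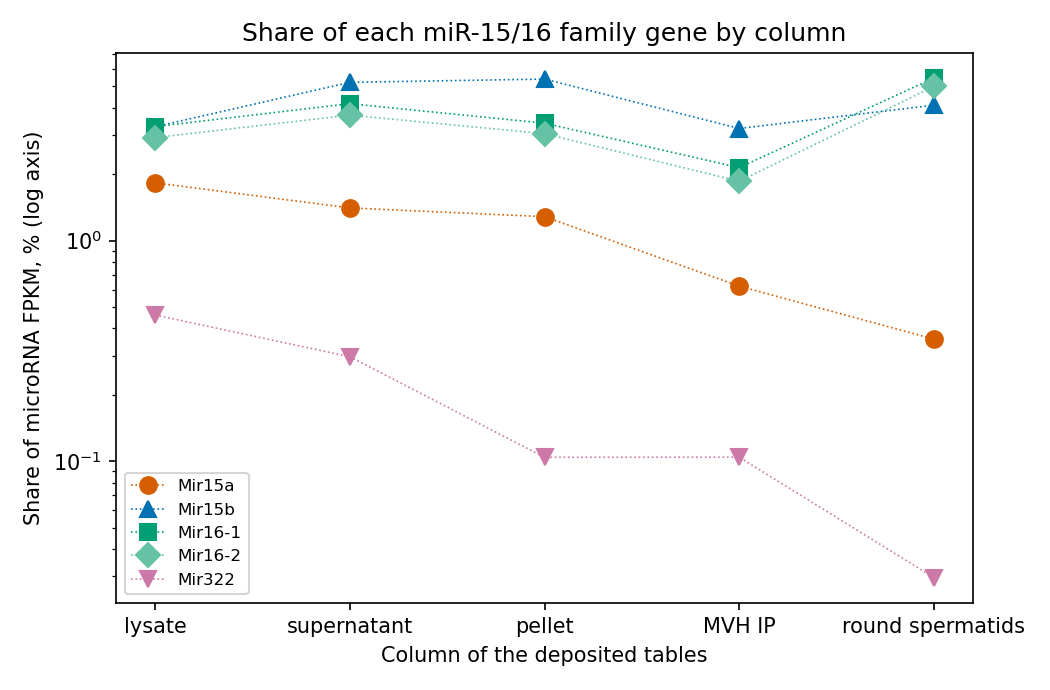
Share of the FPKM sum of 170 microRNA genes (log y axis, %) for each of the 5 genes in 5 columns; the dotted lines only join the points of a gene. Mir15b, Mir16-1 and Mir16-2 stay between 1.86% and 5.46%, while Mir15a ends at 0.358% and Mir322 at 0.0296% in round spermatids.

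In round spermatids, the share of Mir15a was 5.11-fold lower than in the lysate (log2 -2.35, counting SE 0.17) and that of Mir322 15.5-fold lower (log2 -3.96, counting SE 0.48, on about 9.21 reads). The shares of Mir16-1 (log2 0.73, SE 0.038), Mir16-2 (0.77, SE 0.039) and Mir15b (0.32, SE 0.079) were higher. Without Mir34c in the sum, Mir15b was at 0.061, within its counting SE, while Mir16-1 was at 0.47 and Mir16-2 at 0.51. Thus 2 of 5 genes were at least 2-fold lower, beside 48.2% of the 170 genes, and none was 2-fold higher, beside 21.2%. The median gene was at -0.92. Mir15a and Mir322 lay further down than this median, and the other 3 genes above it.

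In the MVH IP, the share of Mir15b was close to that in the lysate (log2 -0.03, counting SE 0.17). Mir16-1 was at -0.62 (SE 0.12) and Mir16-2 at -0.66 (SE 0.12). Mir15a was at -1.56 (SE 0.25) and Mir322 at -2.14 (SE 0.50), both at least 2-fold lower. Of the 170 genes, 23.5% were lower and 19.4% higher by that fold, with a median of -0.23. None of the 5 genes had a higher share in the MVH IP than in the lysate, though Mir15b changed sign under some scalings (0.13 without Mir34c). The comparisons of both columns use the same lysate values.

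**Figure D5:**
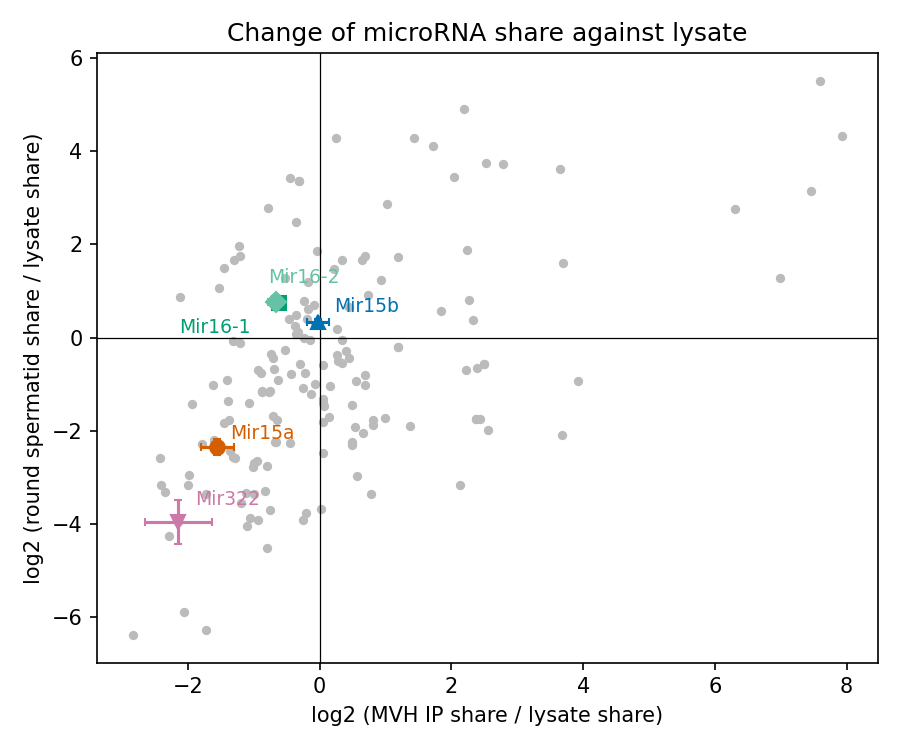
log2 change of the share against lysate in the MVH IP (x axis) and in round spermatids (y axis) for 163 of the 170 microRNA genes (7 with a value of 0 are not drawn); bars on the 5 genes are counting SE. Mir15a and Mir322 lie to the lower left, Mir15b near 0 on the x axis and the Mir16 genes above 0 on the y axis only.

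Ratios of members inside a column need no scale between tables. Mir15b to Mir15a was 1.80 in FPKM in the lysate, 3.71 in the supernatant, 4.21 in the pellet, 5.18 in the MVH IP and 11.5 in round spermatids. It was 2.04 in the ACR IP, on 6 and 7 reads. In read equivalents the same pair was at 0.755 in the lysate, 1.56 in the supernatant, 2.18 in the MVH IP and 4.83 in round spermatids. Mir15a thus had the more reads in the lysate and Mir15b in the other 3 columns. Relative to the lysate, the ratio was 6.40-fold higher in round spermatids (log2 2.68, counting SE 0.19) and 2.89-fold higher in the MVH IP (log2 1.53, SE 0.30), each beyond counting error.

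The cluster partners on chromosome 14 did not keep a constant ratio. Mir16-1 exceeded Mir15a by 1.80-fold in FPKM in the lysate, 2.97-fold in the supernatant, 2.65-fold in the pellet, 3.45-fold in the MVH IP and 15.3-fold in round spermatids. In read equivalents it did so by 2.50-fold in the lysate, 4.12-fold in the supernatant, 4.78-fold in the MVH IP and 21.2-fold in round spermatids. The partners on chromosome 3 stayed closer, with Mir15b to Mir16-2 in FPKM at 1.12 in the lysate, 1.41 in the supernatant, 1.77 in the pellet, 1.74 in the MVH IP and 0.822 in round spermatids. In read equivalents Mir16-2 had the more reads throughout, with this ratio at 0.316 in the lysate, 0.398 in the supernatant, 0.490 in the MVH IP and 0.232 in round spermatids. Reads of miR-16-5p cannot be assigned to one cluster, so what each cluster gave of them was not measured. Mir16-1 to Mir16-2 lay between 1.09 and 1.15 in every column outside the ACR IP table, and at 3.67 in the lysate of that table. Mir322 was the most variable against Mir15b, which exceeded it 7.14-fold in FPKM in the lysate, 17.5-fold in the supernatant, 51.9-fold in the pellet, 30.9-fold in the MVH IP and 139-fold in round spermatids. In read equivalents Mir15b exceeded Mir322 by 2.02-fold in the lysate, 4.96-fold in the supernatant, 8.74-fold in the MVH IP and 39.2-fold in round spermatids.

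Outside the 5 genes, 3 relatives were listed, Mir195 and Mir497 from one cluster on chromosome 11 and Mir503 beside Mir322. Mir195 was at 50470.1 FPKM in the lysate and 116418 in the supernatant, and its share in round spermatids was within a log2 of -0.05 of the lysate. Mir497, its cluster partner, was at 59228.6 and 83469.4 FPKM, but its share in round spermatids was lower by a log2 of -2.97, on about 8 reads. Mir503 was at 20976.4 and 30516.1 FPKM, with a log2 share change of -3.70 in round spermatids on about 1 read. Mir195 and Mir497 thus differed in round spermatids, while Mir322 and its neighbour Mir503 were both low. These values rest on few reads, and those of Mir195 were not derived. In the MVH IP the log2 share changes were 0.33 for Mir195, 0.57 for Mir497 and -0.75 for Mir503.

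Other microRNAs of the X-linked cluster beside Mir322 were listed for 6 of 8 names in the supernatant and pellet tables, Mir503 among them. The names not found were Mir450a-1 and Mir450a-2, while Mir450-1 and Mir450-2 were listed. None of the 6 was at least 2-fold changed in the supernatant, and all 6 were at least 2-fold lower in the pellet (median log2 -4.53), where 93.4% of microRNA genes were lower by that fold and their median was -4.65. In round spermatids Mir351 was at 486.566 FPKM against 10357.6 in the lysate, Mir450-1 at 319.846 against 2649.57 and Mir450-2 at 1551.04 against 6683.88. Mir450b was at 223.602 against 823.243 FPKM and Mir542 at 597.748 against 1200.41. Relative to the FPKM sum of the 170 common genes, these are log2 changes of -2.23 for Mir351, -0.86 for Mir450-1, 0.08 for Mir450-2, 0.31 for Mir450b and 1.18 for Mir542, beside -3.96 for Mir322 and -3.70 for Mir503. The values of these 5 genes thus lay on both sides of 0, at low levels, and all 5 lay above Mir322. Their read equivalents and counting errors were not derived. At Mir503, 354.078 FPKM in round spermatids was about 1 read, so some of these signs may lie within counting error. Of 30 known target genes, which such tables can show only as small fragments, 3 were listed in the supernatant table and 2 in the pellet table. In the ACR IP the cyclin gene Ccne1 was at 7.08 FPKM against 0.849 in its lysate. Mcl1 and Hmga1 were lower there, at 0.756 against 13.5 FPKM and at 1.72 against 5.81 FPKM. In the MVH IP table the proto-oncogene Myb was at 40.3 FPKM, Mcl1 at 11.3, Pim1 at 5.17 and Siah1a at 1.85. Ccnd3, Cdc25a, Chek1, Wee1, Acvr2a and Ywhah were listed there at 0. Mcl1 was at 12.3 FPKM in round spermatids, beside 6.61 in the lysate of the supernatant table. These values are far below those of the microRNAs and say nothing of messenger RNA levels.

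By the Euclidean distance over 4 values (log2 ratios of supernatant and pellet, log2 share changes of MVH IP and round spermatids), the genes most like each member among 162 others were found. Mir16-1 and Mir16-2 were closest to each other (0.057), but their reads may be the same, so this nearness is no finding of likeness. Next for Mir16-1 came Mir30d (0.44) and Mir191 (0.76). Mir15b was closest to its relative Mir195 (0.53), then Mir30b (0.63) and Mir463 (0.77). Mir15a was closest to Mir103-2 (0.40), Mir103-1 (0.42) and Mir93 (0.72). The nearest genes of Mir322 were Mir201 at 1.31 and Mir883a and Mir202 at 1.49. Its MVH IP and round spermatid values carry counting SE of 0.50 and 0.48, so these distances are only loosely known. Mir15a lay 3.48 from Mir15b and 2.37 from Mir322. Median distances to other genes were 2.80 to 4.38, and the 4 values share the lysate column.

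Markers of other cells were summed beside these shares. The 6 listed microRNA markers of red cells, muscle, endothelium, leukocytes and Sertoli cells summed to 5.17% of the microRNA FPKM in the lysate, 5.21% in the supernatant, 2.58% in the pellet, 2.59% in the MVH IP and 1.66% in round spermatids, with none of the 6 at 0. The sum was thus lower than in the lysate in the pellet, MVH IP and round spermatids, but not in the supernatant. The single markers varied in the supernatant, with log2 share changes of -1.32 to 0.46 and a median of -0.36. Mir15a and Mir322 had lower shares there. Mir144, a further red cell marker outside the common 170 genes, was listed at 0 in round spermatids, beside 24191 FPKM in the lysate of the supernatant table. The leukocyte marker Mir150, also outside these genes, went the other way, at 3281.71 FPKM in round spermatids beside 5178.16 in that lysate. Its FPKM fell less than that of Mir145 (17039.2 beside 37359.3), whose share was higher. The reads behind Mir150 were not derived. In round spermatids the red cell marker Mir451 had a log2 share change of -6.38 and the endothelial marker Mir126 one of -3.35. The Sertoli cell marker Mir202 was at -2.59 and the leukocyte marker Mir142 at -2.04. Of the muscle markers, Mir143 was at -0.38 and Mir145 at 1.05. In the MVH IP, 4 of the 6 had a lower share, with Mir451 at -2.84, while the leukocyte marker Mir142 (0.65) and the muscle marker Mir143 (0.27) had a higher one. The germ cell markers Mir34b, Mir34c, Mir449a and Mir184 summed to 26.0% in the lysate, 38.4% in the MVH IP and 25.1% in round spermatids. Within them, Mir184 was higher in round spermatids (log2 share change 4.90), while Mir34c (-2.30) and Mir449a (-3.67), which are known from meiotic and haploid germ cells, were lower. The Mir34 and Mir449 genes went from 25.3% in the lysate to 5.97% in round spermatids. The part of these cells in the values of Mir15a and Mir322 was not tested.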

How the data were processed

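Small RNA of 8 samples was deposited by the authors as 5 tables of FPKM values, normalized table by table. Per the submitters' processing notes, TopHat, Cuffdiff and the mm9 build were used; for versions, annotation and reads with several matches, nothing is given in the sources used here. FPKM is named as the unit per the file headers of the round spermatid table and taken from Cuffdiff's column names elsewhere. The authors' deposited supernatant and pellet tables also hold log2 fold changes, a test statistic (a score), p-values and q-values from 1 column per group; these are quoted as theirs.

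From these, log2((fraction + 1)/(lysate + 1)) was computed within a table for features of at least 1 FPKM in either column. Ranks were taken over microRNA genes, and shares over the 170 microRNA genes listed in 4 tables; rows of 1 symbol in the MVH IP table were summed. An SE in log2 units is the authors' fold divided by their statistic, or for shares and ratios a Poisson error from read equivalents.

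Depth is not stated. It was read from ratios of low features. Supernatant ratios lay on a step of 0.667 for 509 features (4 for a step moved by 1%), ACR IP on 10.0 (251 against 0), round spermatids on 2.99 (64 against 1) and MVH IP on 23.6 (133 against 3). With the ACR IP step, 56 of 62 lysate values of hairpins came out whole within 0.02, against 39 of 72 for a step of 5 and 52 of 57 for 20. Larger multiples keep whole values whole by arithmetic, so the smallest step was taken; with it, Poisson errors were close to those of the authors' statistic (0.0256 and 0.0253 for Mir15a). The step divided by 2 was met by 66 features in round spermatids and 142 in the MVH IP. Pellet reads were not derived. Hairpin lengths are those of GRCm38.p6. Scripts were tested on simulated data. Intervals are exact Poisson at 95%; intervals and floors of 3 reads cover counting error only.

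The members and all gene lists were chosen with earlier results of these data known. The genes named are the 5 members, the fixed lists of relatives, neighbours, targets and markers, and the 3 nearest patterns of each member. Of other columns of per-sample values, 1 (long RNA) was not used. Tools were matplotlib 3.10.9, scipy 1.17.1, pandas 2.3.3, numpy 2.4.6 and Python 3.11.15. The closing section gives the effect of other pseudocounts, filters, centring, denominators, a length scale and summed copies.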

Additional observations from a re-analysis of the deposited data

How the results depend on the processing

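No paired analysis was possible because each group has 1 column of values, and for the same reason no replicate could be left out. The value followed here is the median of the 5 genes unless named otherwise. In the supernatant, 0.79 became 0.58 when centred on microRNA genes (Mir15a -0.14) and 0.43 with Mir16-1 and Mir16-2 summed. In the pellet, -4.10 became -1.90 centred on all features, 0.56 centred on microRNA genes (Mir15b 1.23, Mir16-1 0.56, Mir16-2 0.57) and -4.37 with the copies summed. In the ACR IP, -7.60 became -4.90 centred on all features and 2.80 centred on microRNA genes (Mir15a 4.19, Mir15b 4.39, Mir322 2.80), and -6.01 with the Mir16 genes at their 3-read bound. As 220 of 292 microRNA genes are at 0 there, the centre on microRNA genes is set by the pseudocount, and nothing can be read from those centred values. The median rank in the MVH IP, 12, became 10 over genes in every table, 11 with FPKM times hairpin length and 7 with copies summed. In round spermatids 6 became 7 with length and 5 with copies summed. The length setting undoes only part of the length scaling, so it cannot show that ranks are free of it. Mir15b to Mir16-2 in the MVH IP was 1.74 in FPKM, 1.17 in FPKM times length and 0.490 in read equivalents. The log2 change of the summed share in the MVH IP, -0.57, became -0.80 over all microRNA genes of each table and -0.41 without Mir34c; with the Mir16 pair counted once, chosen after seeing the data, it was -0.56. There Mir15b changed sign around 0, to 0.13 without Mir34c, 0.015 with length and 0.043 against the median microRNA gene. In round spermatids 0.34 became 0.080 without Mir34c, 0.47 with length, 1.36 against the median gene and 0.20 with the pair counted once. Mir15b by itself went there from 0.32 to 0.061 without Mir34c. For the change of Mir15b to Mir15a between round spermatids and lysate, 2.68, length cancels and the lysate columns are of 1 library, so the alternatives run say nothing of its stability. In read equivalents, chosen after seeing the data, this pair had log2 ratios of -0.41 and -0.42 in the lysate columns of the supernatant and ACR IP tables. For single genes and pairs, 12 alternative values changed sign, all given above, and 180 did not. Depth limits Mir322 most, with about 8.27 and 9.21 reads in the MVH IP and round spermatids. Locus lengths of the deposited tables span host loci, so hairpin length stood in for them.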
